A study of Homo sapiens with 6 samples.

Results

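The genes described here govern how a cell stores triglyceride in lipid droplets and breaks it down again, and they are grouped around *G0S2*. They are 10 of the 23062 identifiers in the tables, namely *G0S2*, *PNPLA2*, *ABHD5*, *LIPE*, *MGLL*, *DGAT1*, *DGAT2*, *PLIN2*, *PLIN3* and *HILPDA*. *G0S2* was chosen by its higher value in the TAX libraries, which was known from earlier results of these data, so its own TAX values are given as a description without a test. The other 9 genes were chosen by their function in lipid droplets. The cells were DU145, labelled as wild type, an established line from human prostate cancer. Control cells were kept in MEM medium for 48 h, and TAX-treated cells received taraxasterol (TAX), a plant triterpene, for 48 h at the IC50, which the study's methods give as 56 µM. TAX was dissolved in DMSO, and whether the control cells also received DMSO is not stated in the sources used here. RNA of 3 control and 3 TAX samples was sequenced, and the labels do not say whether they came from separate cultures. The study's methods state that experiments were repeated, without saying it of these samples in particular, so that p-values measure the spread between these samples, which may be technical.

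A lipid droplet is a store of neutral lipid, mainly triglyceride and sterol ester, inside a layer of phospholipid and coat proteins. Enzymes of the endoplasmic reticulum, with DGAT1 and DGAT2 at the last step, fill it with triglyceride. Adipose triglyceride lipase (ATGL), the product of *PNPLA2*, removes the first fatty acid, hormone-sensitive lipase (*LIPE*) the next, and monoacylglycerol lipase (*MGLL*) the last. The product of *ABHD5* activates ATGL, while the small proteins G0S2 and HILPDA bind and inhibit it. Perilipins such as PLIN2 and PLIN3 coat the droplet and limit the access of lipases, and many cancer cells hold droplets that serve as a store of fatty acids.

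The promoters of *G0S2* and of *PNPLA2* are shown, as those of the inhibitor and of its target lipase. The 250 bases before the RefSeq start are printed (GRCh38.p14), which lie at chr1:209675162-209675411 for *G0S2* and chr11:818664-818913 for *PNPLA2*, both on the plus strand. The last bases of the *PNPLA2* window fall in the first exon of a GENCODE 29 transcript. Capitals mark the matches, on either strand, of TATAA (core of the TATA box), ACGTG and GCGTG (core of hypoxia response elements), AGGTCA (half-site of nuclear receptors such as the PPARs) and GGGCGG (GC box).
G0S2: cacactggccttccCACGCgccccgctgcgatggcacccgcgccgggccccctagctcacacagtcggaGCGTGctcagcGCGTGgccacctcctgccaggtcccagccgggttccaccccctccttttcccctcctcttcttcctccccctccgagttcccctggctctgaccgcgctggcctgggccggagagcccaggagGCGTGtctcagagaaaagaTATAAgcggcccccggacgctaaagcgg
PNPLA2: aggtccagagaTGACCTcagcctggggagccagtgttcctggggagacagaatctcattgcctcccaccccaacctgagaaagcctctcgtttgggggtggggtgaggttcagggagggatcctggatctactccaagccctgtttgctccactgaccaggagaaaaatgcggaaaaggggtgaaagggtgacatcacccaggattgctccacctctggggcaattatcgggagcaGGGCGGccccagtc

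In *G0S2* the letters TATAA begin 28 bases before the start, and GCGTG occurs 4 times, 1 of them on the minus strand. None of the other motifs is in that window. The *PNPLA2* window holds 1 AGGTCA half-site on the minus strand, 239 bases before the start, and 1 GC box. Neither TATAA nor the hypoxia motifs occur in it. The bases of the *G0S2* window are 69.2% GC and those of the *PNPLA2* window 58.4%, where the median of promoters is 58.0%. The window of *PLIN2* also has TATAA 28 bases before the start, on the minus strand. ACGTG begins 120, 69 and 68 bases before the start of *PLIN2*, where the matches at 69 and 68 share letters on opposite strands. It is absent before the other genes with an entry. GCGTG is found before *PLIN2*, *PLIN3* and *ABHD5* as well. Of all 35116 promoters in the table, 18.9% hold TATAA in the same 250 bases, 18.5% ACGTG, 32.2% GCGTG, 12.1% AGGTCA and 42.6% GGGCGG. The matches are descriptions of these letters and not of bound factors. Of the 10 genes, 6 had an entry in the RefSeq table.

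The values were taken as FPKM, a scale adjusted for gene length and library depth, so that levels can be set side by side between genes. The summed FPKM lay between 322483 and 363724 per library, lowest in control replicate 3, and the number of reads is unknown because the tables hold no counts. Control replicate 3 gave the lowest control value for 9 of the 10 genes. Of 6 epithelial markers 5 were tested, with *KRT8* from 126 to 173 FPKM, and *KRT5* read 0 FPKM in every library. Of the 5, 3 had a log2 difference above 0 and 2 below, where 69.1% of all genes were above 0. For 2 of the 5 the groups did not overlap, beside 17.9% of all genes. *KRT18* had 127 ± 16.6 FPKM in the control and 156 ± 13.8 FPKM in the TAX libraries (SD, n = 3 each, log2 difference 0.301, adjusted p = 0.411 from limma). *EPCAM* had 58.6 ± 4.06 and 64.8 ± 1.35 FPKM (log2 difference 0.144, adjusted p = 0.570 from limma). *KRT7* had 172 ± 29.2 and 169 ± 4.91 FPKM (log2 difference -0.015), with overlap. *CDH1* had 54.1 ± 13.1 and 47.5 ± 4.18 FPKM, also with overlap (log2 difference -0.160, adjusted p = 0.733 from limma). All 7 adipocyte markers together summed to 0.0318 to 0.127 FPKM per library. Of 8 markers of fibroblasts, endothelium and blood cells, 6 were under 0.1 FPKM in every library. The 8 markers summed to between 21.9 and 28.7 FPKM in the control libraries and between 33.9 and 34.9 FPKM in the TAX libraries, nearly all of it from *CD68*, which encodes a lysosomal protein (log2 difference 0.485, adjusted p = 0.0884 from limma). The other tested marker of this list, *COL1A1*, which encodes a chain of fibrillar collagen, was lower in all TAX libraries, at 1.44 ± 0.0285 FPKM beside 2.00 ± 0.0947 FPKM in the control libraries (SD, n = 3 each, log2 difference -0.295, adjusted p = 0.197 from limma). The part of these differences in the results was not tested.

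The levels of the 10 genes in control cells spanned from the coat genes to *LIPE*. In FPKM, *PLIN2* (67.2 ± 20.3, SD, n = 3) and *PLIN3* (57.5 ± 3.92) stood highest and overlapped each other. *HILPDA* (28.9 ± 14.2), *MGLL* (27.3 ± 3.41) and *G0S2* (23.8 ± 3.96) came next, and each overlapped its neighbour in this order. *PNPLA2* (14.8 ± 1.27) and *DGAT2* (13.0 ± 0.772) overlapped as well, and so did *ABHD5* (3.31 ± 0.539) and *DGAT1* (2.70 ± 0.514). *LIPE* lay far below the others at 0.122 ± 0.0168 FPKM. After TAX treatment *G0S2* stood in the third place, clear of *MGLL*, *HILPDA* and *PNPLA2* in every library, and the order of the other genes was the same except that *PLIN3* stood above *PLIN2* and *MGLL* above *HILPDA*. The TAX values of *PLIN3* and *PLIN2* overlapped, so their exchange of place was within the spread, and *G0S2* and *PLIN2* overlapped as well. RNA of a whole culture was measured, so that more RNA per cell and more cells with RNA of a gene cannot be told apart.

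**Figure D1:**
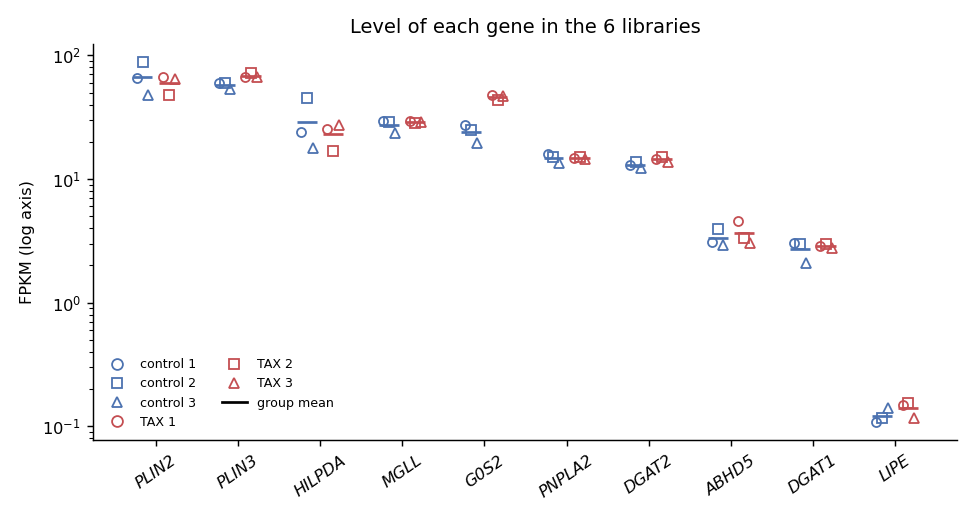
FPKM of the 10 genes on a log axis, with 1 symbol per library (circle, square and triangle for replicates 1, 2 and 3), blue for control, red for TAX, and a line at each group mean. *G0S2* is separated by group, while *PLIN2* and *HILPDA* spread widely within the control libraries and *LIPE* lies near 0.1 FPKM.

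*G0S2*, the inhibitor of ATGL, is a gene of 2 exons on chromosome 1 from 209675420 to 209676388 (GENCODE 29, GRCh38). The control libraries, in the order of replicates 1, 2 and 3, had 27.3, 24.7 and 19.5 FPKM, and the TAX libraries 47.6, 43.4 and 46.6 FPKM. Every TAX library lay above every control library, and the highest control value was well below the lowest TAX value. The means were 23.8 ± 3.96 and 45.9 ± 2.22 FPKM (SD, n = 3 each), a ratio of 1.92. On the scale of log2(FPKM + 1), which understates the change of genes with low values, the difference of *G0S2* was 0.928. Leaving out 1 library at a time gave 0.797 to 1.029, the lowest without control replicate 3. The antisense gene AL031316.1 covers all 969 bases of *G0S2* on the other strand and has no row in the tables, and without a statement on strand the reads of both cannot be told apart. All the other genes except *PLIN2* and *HILPDA* also overlap genes on the opposite strand in GENCODE 29, and the same limit holds for them. *LIPE*, *DGAT1* and *DGAT2*, like *HILPDA*, overlap transcripts on their own strand that have no row in the tables.

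*PNPLA2*, on chromosome 11 from 818902 to 825573, encodes the lipase that G0S2 inhibits, and its values were close to each other in all libraries. The FPKM of *PNPLA2* was 15.9, 15.2 and 13.4 in the control and 14.7, 15.2 and 14.5 in the TAX libraries. The TAX libraries lay within the range of the control libraries. The log2 difference was -0.001 with a 95% interval of -0.187 to 0.185 (adjusted p = 0.998 from limma), that is 0.879 to 1.14 times the control level. Relative to *PNPLA2* in the same library, which removes any difference in scale between libraries, *G0S2* stood at 1.72, 1.62 and 1.45 in the control and at 3.24, 2.85 and 3.21 in the TAX libraries. The ratio of *G0S2* to *PNPLA2* was thus 1.60 ± 0.135 in control and 3.10 ± 0.216 in TAX-treated cells (SD, n = 3 each), without overlap. Because *G0S2* was chosen by its TAX values, this separation is a description and not a separate result.

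*HILPDA*, which encodes the other inhibitor of ATGL and is induced by hypoxia, lies on chromosome 7 from 128455849 to 128458418. Its FPKM was 24.1, 44.9 and 17.7 in the control and 25.5, 16.9 and 27.1 in the TAX libraries. Control replicate 2 stood above all others, TAX replicate 2 was the lowest, and the groups overlapped. The log2 difference of *HILPDA* was -0.230 (95% interval -0.846 to 0.386, adjusted p = 0.790 from limma). Without control replicate 2 it was 0.131 and without control replicate 3 it was -0.517. Relative to *PNPLA2*, *HILPDA* stood at 1.52, 2.95 and 1.32 in the control and 1.74, 1.11 and 1.87 in the TAX libraries. When both inhibitors were added, their sum per *PNPLA2* was 3.52 ± 0.933 in control and 4.67 ± 0.615 in TAX-treated cells (SD, n = 3 each) and overlapped between groups. The sum holds *G0S2*, which was chosen by its TAX values, so it is a description. *HILPDA* alone per *PNPLA2* was 1.93 ± 0.889 in control and 1.57 ± 0.404 in TAX-treated cells. The transcripts AC010655.4 and AC010655.2 overlap *HILPDA* on the same strand without a row in the tables, so its reads may include theirs.

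*ABHD5*, the activator of ATGL, on chromosome 3 from 43690108 to 43734371, had 3.07, 3.93 and 2.93 FPKM in the control and 4.55, 3.34 and 3.02 FPKM in the TAX libraries. TAX replicate 1 stood above the others, and the other TAX libraries lay within the control range. The log2 difference was 0.099 (95% interval -0.189 to 0.388, adjusted p = 0.807 from limma), and without TAX replicate 1 it was -0.038. *G0S2* per *ABHD5* was 7.28 ± 1.40 in control and 13.0 ± 2.48 in TAX-treated cells (SD, n = 3 each), without overlap. This too is a description, because of the way *G0S2* was chosen.

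**Figure D2:**
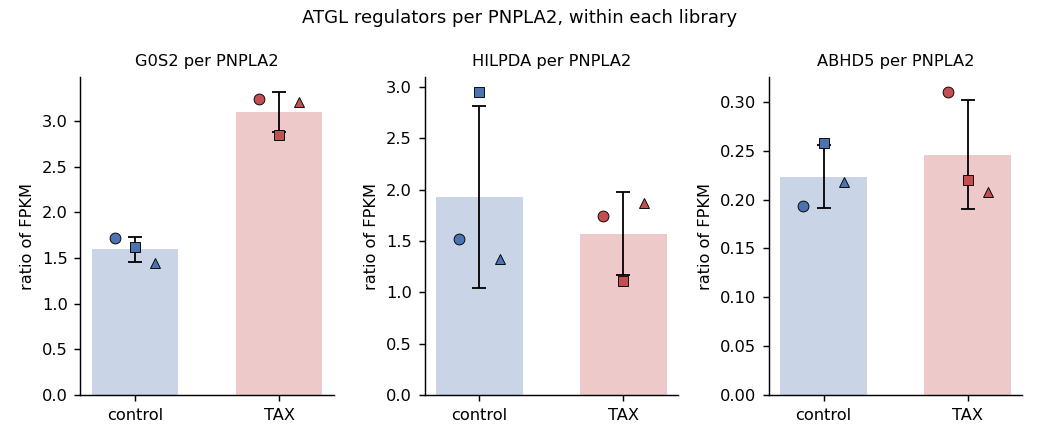
FPKM of *G0S2*, *HILPDA* and *ABHD5* divided by that of *PNPLA2* in the same library, with bars for the mean, error bars for the SD (n = 3) and 1 symbol per replicate. *G0S2* per *PNPLA2* is 1.45 to 1.72 in control and 2.85 to 3.24 in TAX libraries, while the other ratios overlap. *G0S2* was chosen by its TAX values, so its ratio is a description.

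The enzymes after ATGL were measured at very different levels. *LIPE*, on chromosome 19 from 42401507 to 42427426, had 0.108, 0.116 and 0.141 FPKM in the control and 0.150, 0.154 and 0.116 FPKM in the TAX libraries. These values lie below the filter on low values (at least 1 FPKM in at least 3 libraries), so *LIPE* was not tested in the fit of all genes, and the values of both groups overlapped (p = 0.3, exact permutation test, two-sided). *MGLL*, on chromosome 3 from 127689062 to 128052190, had 29.6, 28.9 and 23.4 FPKM in the control and 29.6, 28.3 and 29.1 FPKM in the TAX libraries. Only control replicate 3 stood apart, on the low side. The log2 difference of *MGLL* was 0.092 (95% interval -0.123 to 0.307, adjusted p = 0.764 from limma), and without control replicate 3 it was -0.011. *MGLL* per *PNPLA2* was 1.83 ± 0.0818 and 1.96 ± 0.0866 (SD, n = 3 each), again with overlap.

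Of the acyltransferases that make triglyceride, *DGAT2* stood well above *DGAT1* in every library. *DGAT2*, on chromosome 11 from 75759512 to 75801535, had 13.0, 13.7 and 12.2 FPKM in the control and 14.5, 15.2 and 13.8 FPKM in the TAX libraries. The 3 TAX values lay just above the 3 control values (exact permutation test, two-sided; p = 0.1 is the smallest it can reach with 3 against 3). The log2 difference of *DGAT2* was 0.150 (95% interval -0.029 to 0.329) and did not pass (adjusted p = 0.553 from limma). *DGAT1*, on chromosome 8 from 144314584 to 144326910, had 3.02, 2.98 and 2.11 FPKM in the control and 2.88, 3.01 and 2.76 FPKM in the TAX libraries, with control replicate 3 alone at the low end. Its log2 difference was 0.080 (95% interval -0.157 to 0.316, adjusted p = 0.813 from limma) and turned to -0.042 without control replicate 3. *DGAT2* per *DGAT1* was 4.90 ± 0.777 in control and 5.02 ± 0.0347 in TAX-treated cells (SD, n = 3 each).

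Among the perilipin genes, *PLIN2* and *PLIN3* had almost all of the FPKM. *PLIN1*, *PLIN4* and *PLIN5* together made up 0.769% to 1.30% of the FPKM of the 5 perilipin genes. *PLIN2*, on chromosome 9 from 19108375 to 19149290, had 65.4, 88.3 and 47.9 FPKM in the control and 66.7, 47.6 and 64.5 FPKM in the TAX libraries. As for *HILPDA*, control replicate 2 stood highest and TAX replicate 2 lowest, and the groups overlapped. The log2 difference of *PLIN2* was -0.142 (95% interval -0.577 to 0.292, adjusted p = 0.818 from limma). It was 0.074 without control replicate 2, 0.009 without TAX replicate 2 and -0.361 without control replicate 3, so that single libraries set its direction.

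*PLIN3*, on chromosome 19 from 4838341 to 4867768, encodes a perilipin that is found in the cytosol and binds nascent droplets. Its FPKM was 59.7, 59.9 and 53.0 in the control and 66.6, 71.3 and 66.3 in the TAX libraries. The groups did not overlap (exact permutation test, two-sided p = 0.1). The log2 difference of *PLIN3* was 0.240 (95% interval 0.054 to 0.425, not adjusted), which did not pass over all genes (adjusted p = 0.379 from limma). The share of *PLIN3* in the FPKM of the 5 perilipin genes was 47.2%, 40.1% and 51.9% in the control and 49.6%, 59.3% and 50.2% in the TAX libraries, so the groups overlapped in this share. The sum of *PLIN2* and *PLIN3* was 125 ± 23.7 FPKM in the control and 128 ± 7.71 FPKM in the TAX libraries (SD, n = 3 each).

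**Figure D3:**
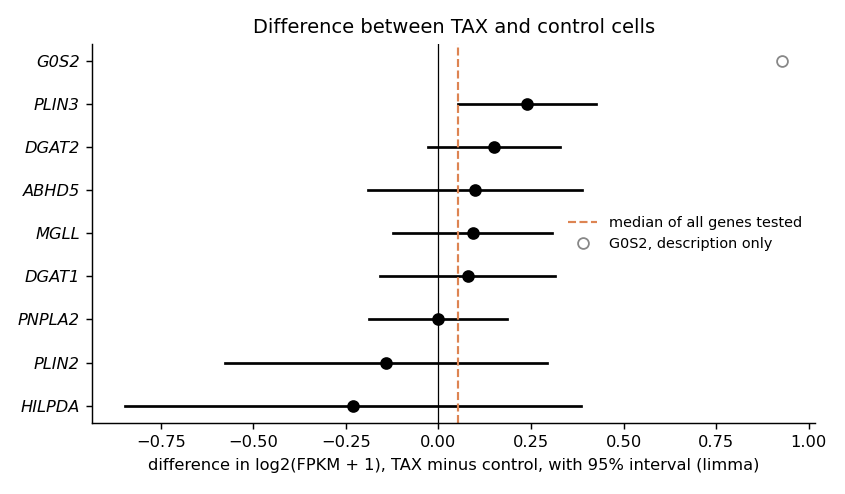
Difference in log2(FPKM + 1), TAX minus control, of the 9 genes past the filter on low values, with 95% intervals from limma for the 8 genes other than *G0S2*, which is drawn as a description. The dashed line is the median of all genes tested, 0.054. The intervals are not adjusted. That of *PLIN3* lies above 0, with its lower end of 0.054 at the dashed line (adjusted p = 0.379 from limma). The other 7 intervals span 0.

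Counted over the 8 genes other than *G0S2* that passed the filter, 0 had an adjusted p under 0.05 (limma), beside 0.477% of all 12359 genes tested. At an unadjusted p under 0.05 there was 1, *PLIN3*, beside 10.1% of all genes. Without TAX replicate 2 there were 0, beside 962 of 12280 genes. The groups of 3 did not overlap for 2 of the 8, *DGAT2* and *PLIN3*, beside 17.9% of all genes. Of the 8 genes, 5 had a log2 difference above 0 and 3 below, with a median of 0.086. Over all genes tested 69.1% were above 0 and the median was 0.054. Of the genes with an unadjusted p under 0.05, 76.2% were higher after TAX treatment, a share that fell to 45.6% when each library was centred on its median. *PLIN3* had a log2 difference of 0.182 after such centring (adjusted p = 0.254 from limma). With any library left out or any other setting tried, the adjusted p of *PLIN3* lay between 0.176 and 0.762.

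In their spread among replicates *HILPDA* and *PLIN2* deviated together, with control replicate 2 above and control replicate 3 and TAX replicate 2 below their means over 6 libraries. For *HILPDA* the highest control value was 2.54 times the lowest, and for *PLIN2* 1.85 times. Within the TAX libraries these factors were 1.61 and 1.40. *PNPLA2*, *DGAT2* and *PLIN3* varied less, with factors of 1.18, 1.13 and 1.13 within the control libraries.

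**Figure D4:**
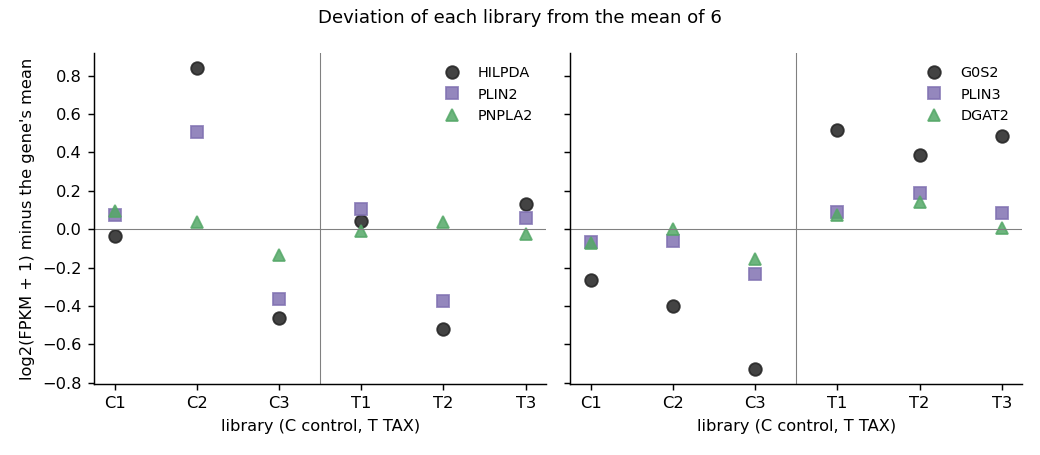
Deviation of log2(FPKM + 1) in each library from the gene's mean over the 6 libraries, for *HILPDA*, *PLIN2* and *PNPLA2* (left) and for *G0S2*, *PLIN3* and *DGAT2* (right). *HILPDA* and *PLIN2* reach 0.838 and 0.504 in control replicate 2. The 3 genes on the right are higher in all TAX than in all control libraries. They are *G0S2*, chosen by its TAX values, and the 2 of the other 8 tested genes without overlap between groups, beside 17.9% of all genes.

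Genes with a pattern like that of *G0S2* were looked for by the root-mean-square difference of the centred log2(FPKM + 1) profiles over the 6 libraries, among 11638 genes with a symbol. The nearest were *TMEM158* (0.120), *STC1* (0.145), *UPP1* (0.152), *IL24* (0.156) and *IL1RL1* (0.169), where the median of all genes was 0.455. Their own log2 differences between TAX and control were 0.829, 0.663, 0.813, 0.722 and 0.686. In FPKM, *TMEM158* had 5.06, 5.52 and 4.27 in the control and 11.0, 8.60 and 9.11 in the TAX libraries, while *IL1RL1* did not exceed 1.49 in any library. Of the lipid droplet genes, *PLIN3* came nearest, at rank 488 with 0.362, and *HILPDA* farthest, at rank 11491 with 0.688. The likeness rests on 6 points that share their libraries and the difference between the groups, and is a description.

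The other genes of lipid storage and use were taken from 5 lists that hold 75 genes without the 10 above, of which 52 passed the filter. None of the 52 had an adjusted p under 0.05 (limma). At an unadjusted p under 0.05, 4 were higher, beside 7.73% of all genes, and 2 were lower, beside 2.41% of all genes. Their median log2 difference was 0.039, with 36 above 0 and 16 below. The groups did not overlap for 9 of the 52, beside 17.9% of all genes. The number with an unadjusted p under 0.05 was 6 in all, beside 1253 of 12359 genes. It was 2 without TAX replicate 3 (773 of 12292 genes). It was 4 without TAX replicate 1 (839 of 12284), without TAX replicate 2 (962 of 12280) and with the replicate block (971 of 12359). It was 8 without control replicate 2 (1635 of 12283), without control replicate 3 (1398 of 12292) and after quantile normalization (1460 of 12359). With each library centred on its median it was 9 (1497 of 12359).

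Among genes of the droplet coat and its formation, 8 of 16 were tested. All 8 differences were above 0, from 0.029 for *FAF2* to 0.146 for *AUP1*, where 69.1% of all genes were above 0. Their median was 0.055, close to the 0.054 of all genes tested. None had an unadjusted p under 0.05, beside 10.1% of all genes. *AUP1*, which encodes a droplet protein that recruits a ubiquitin-conjugating enzyme, had 51.1 ± 7.75 FPKM in the control and 56.3 ± 3.21 FPKM in the TAX libraries (SD, n = 3 each), with overlap. *TMEM159*, an older symbol of *LDAF1* whose product works with seipin at sites of droplet formation, had 7.45 ± 0.718 and 7.84 ± 0.407 FPKM. *HSD17B11*, whose product resides on droplets, had 32.9 ± 1.36 and 34.7 ± 1.24 FPKM.

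In the synthesis of glycerolipids and sterol esters, 13 of 20 genes were tested, with a median log2 difference of 0.063. The groups did not overlap for 5 of the 13, beside 17.9% of all genes, and not all of these are named here. *GPAT4*, an acyltransferase of the first step, had 18.2 ± 1.46 FPKM in the control and 21.4 ± 1.14 FPKM in the TAX libraries (SD, n = 3 each). *LPIN1*, a phosphatidate phosphatase, had 19.9 ± 2.34 and 23.7 ± 1.05 FPKM. For both genes all TAX libraries lay above all control libraries, with log2 differences of 0.226 and 0.242 and adjusted p of 0.419 and 0.432 (limma). *ACSL3*, an acyl-CoA synthetase of droplets, was lower in all TAX libraries at 19.6 ± 0.514 FPKM than in the control libraries at 22.5 ± 1.36 FPKM (log2 difference -0.187, adjusted p = 0.463 from limma). *AGPAT1* and *AGPAT2*, the most abundant genes of this list, differed by 0.063 and 0.069 with overlap.

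Of other lipases and their regulators 11 of 15 were tested, and 0 had an unadjusted p under 0.05, beside 10.1% of all genes. *NCEH1*, a neutral cholesterol ester hydrolase, had 69.4 ± 3.12 and 74.4 ± 4.20 FPKM, and *LIPA*, the acid lipase of lysosomes, had 57.5 ± 3.83 and 54.3 ± 0.547 FPKM (control and TAX, SD, n = 3 each). *PNPLA3*, the paralog of *PNPLA2*, had a low level of 1.32 ± 0.162 FPKM in the control and 1.12 ± 0.208 FPKM in the TAX libraries. *ABHD6*, whose product also cleaves monoacylglycerol, had 7.17 ± 0.973 and 7.81 ± 0.431 FPKM.

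For the uptake, binding and oxidation of fatty acids 14 of 16 genes were tested, with a median log2 difference of 0.022. The groups did not overlap for 1 of the 14, beside 17.9% of all genes. *SLC27A4*, which encodes the fatty acid transport protein FATP4, had 17.1, 15.0 and 13.4 FPKM in the control and 19.2, 21.5 and 18.2 FPKM in the TAX libraries. Its groups did not overlap, and its log2 difference of 0.353 was the largest of the 52 genes (adjusted p = 0.257 from limma). *SLC27A1* differed by -0.152 with overlap. *CPT1A*, the gate of fatty acids into mitochondria, had 16.6 ± 1.17 and 15.0 ± 0.991 FPKM, and *ACADVL* and *HADHA* of the oxidation cycle had 185 ± 21.6 and 115 ± 11.8 FPKM in the control and 190 ± 6.63 and 118 ± 3.83 FPKM in the TAX libraries (SD, n = 3 each).

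*G0S2* and *PLIN2* are known targets of the PPAR nuclear receptors in other tissues. Of 12 PPAR receptors and target genes 9 were tested, with a median log2 difference of 0.036. The groups did not overlap for 2 of the 9, beside 17.9% of all genes. *PPARD* had 26.2 ± 3.31 FPKM in the control and 32.0 ± 1.94 FPKM in the TAX libraries without overlap (SD, n = 3 each; log2 difference 0.284, adjusted p = 0.392 from limma). *PPARG* had 12.6 ± 0.967 and 14.5 ± 1.05 FPKM with overlap. *PDK4*, a kinase that restrains pyruvate dehydrogenase and a classical PPAR target, was lower in all TAX libraries, with 1.61, 1.90 and 1.44 FPKM in the control and 1.13, 1.23 and 1.09 FPKM in the TAX libraries (log2 difference -0.298, adjusted p = 0.269 from limma).

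**Figure D5:**
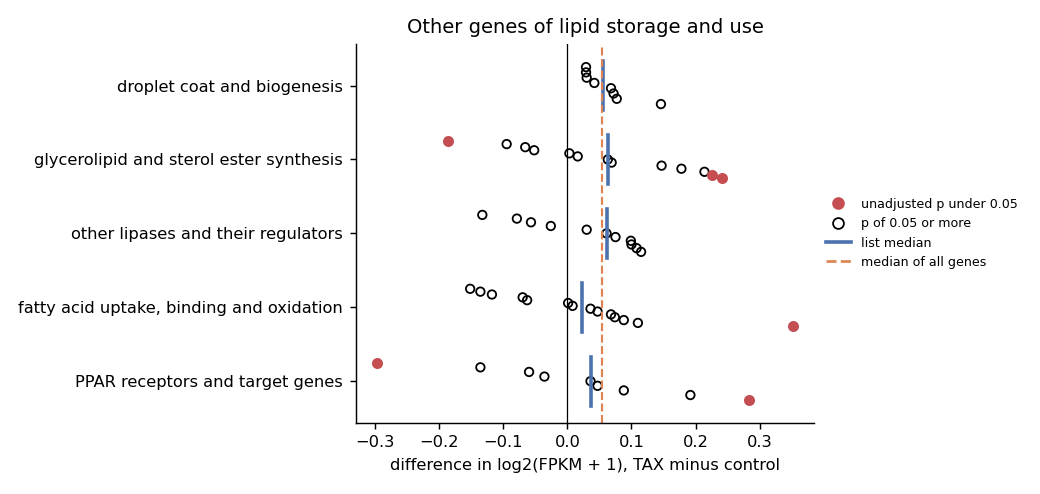
Difference in log2(FPKM + 1), TAX minus control, of each tested gene in the 5 lists, with filled points for an unadjusted p under 0.05, blue lines for list medians and a dashed line for the median of all genes. Positions within a row only spread the points. The 6 filled points are *ACSL3* and *PDK4* below 0 and *GPAT4*, *LPIN1*, *SLC27A4* and *PPARD* above 0.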

How the data were processed

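Per the labels, libraries were made from total RNA of DU145 cells with an mRNA kit, and the submitters' processing notes name HISAT2 2.2.0, StringTie 2.1.2 and GRCh38. The annotation, the filters and the strand setting are not given in the sources used here. The authors deposited 1 table per library, without pooling, whose values were taken as FPKM because 3130 of 23062 identifiers carry StringTie's MSTRG prefix and the sums differ between libraries; TPM is not wholly excluded. No steps of whole reads were found among low values (at most 5.72% of 332 log2 ratios in a bin 0.1 wide), so depth and counting intervals are unknown.

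Values of log2(FPKM + 1) were modelled with limma 3.58.1 under R 4.3.3 (trend, no covariate) for 12359 genes that reached 1 FPKM in 3 or more of the 6 libraries, tested on simulated data, with Benjamini-Hochberg adjustment over all of them. The members and lists were chosen with earlier results of these data known. Genes of the lists were named by rule (in each list any with an adjusted p under 0.05, the 3 with the smallest p and the 2 with the highest mean), besides the 5 genes most like *G0S2*. *PLIN1*, *PLIN4*, *PLIN5* and *CDH1*, and the genes set beside *HILPDA* in the closing section, were named after their values were seen. Promoters were read from a RefSeq table (GRCh38.p14) and gene positions from GENCODE 29. Alternatives were another pseudocount, other filters and scalings, no trend, a replicate block and leaving out each library. Scaling libraries to equal summed FPKM was chosen after seeing the data. One list of markers is not reported here.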

Additional observations from a re-analysis of the deposited data

How the results depend on the processing

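Of the 112 alternative values of the 8 members other than *G0S2* that were tested, 102 kept their direction and their side of the threshold. The other 10 turned sign, all with a library left out, in 6 genes whose difference had not passed. With each library left out in turn the log2 difference ranged from -0.067 to 0.046 for *PNPLA2*, from -0.038 to 0.199 for *ABHD5*, from -0.011 to 0.153 for *MGLL*, from -0.042 to 0.144 for *DGAT1*, from -0.361 to 0.074 for *PLIN2* and from -0.517 to 0.131 for *HILPDA*. *G0S2* ranged from 0.797 to 1.029 over its 14 alternatives and *PLIN3* from 0.159 to 0.270. At an unadjusted p under 0.05, 1 member other than *G0S2* and 6 genes of the 5 lipid lists passed, beside 10.1% of all genes. Adjusted, it was 0 and 0 (limma), and 0 and 0 in every other alternative. Over all genes the 59 adjusted calls became 96 with each library centred on its median, 95 after quantile normalization, 37 with a filter of 0.1 FPKM, 1 with no filter, 26 with the replicate block and 18 to 43 with a library left out. Same-numbered libraries did not deviate together (r of -0.117, -0.333 and -0.171 for replicates 1, 2 and 3). Pairs with different numbers had r from -0.167 to 0.292. Whether same-numbered libraries shared a culture or a batch cannot be told from these values, and the labels do not say. With the replicate block 0 members other than *G0S2* passed, and *PLIN3* kept 0.240 (adjusted p = 0.595 from limma). Depth is unknown, which limits what can be said of *LIPE* and other genes near 0.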

Other observations

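The profile of *HILPDA* over the 6 libraries was shared by genes outside lipid storage. This comparison was chosen after the values were seen. By the root-mean-square difference of centred log2(FPKM + 1) profiles among 11638 genes with a symbol, the nearest to *HILPDA* were *NDRG1* (0.074), *ATF3* (0.081), *IRS2* (0.091), *JUN* (0.128) and *NFIL3* (0.134), where the median of all genes was 0.439. *PLIN2* stood at rank 8 with 0.165, *ANGPTL4*, a PPAR and hypoxia target, at rank 141 with 0.281 and *G0S2* at rank 11569 with 0.688. *NDRG1*, a gene known to be induced by hypoxia and stress, stood at 186, 300 and 134 FPKM in the control (replicates 1, 2 and 3) and at 201, 126 and 190 FPKM after TAX treatment. *ATF3*, a stress-induced transcription factor, had 23.8, 44.0 and 16.6 FPKM in the control and 27.9, 15.7 and 28.5 FPKM in the TAX libraries. Control replicate 2 was the highest library for all 5 genes, as for *HILPDA* and *PLIN2*, and TAX replicate 2 the lowest except for *JUN*, where control replicate 3 was lowest. What set these libraries apart was not tested.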
